A study of Homo sapiens with 7 samples.

Results

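A set of 391 replication origins whose centre lies within 5 kb of the start site of a gene was examined for nascent transcription before, at and after the centre. The origins come from a list of 2040 origin centres selected by the authors from OK-seq data. The name of the list says that the 5 kb upstream of the start are empty, so a low signal before an upstream centre or before the start may follow from the selection and is given here as a description. Members were the 392 listed centres with an absolute distance to the nearest start site of 5000 bases or less, of which 391 were found in all 6 tables of signal around origins, and 1 was missing from a table. Of the 391, 311 had their centre upstream of the start (negative distance) and 80 had it downstream, inside or past the beginning of the gene (positive distance). The other listed origins found in all 6 tables, used for comparison, were 966 at 5 to 20 kb and 675 at over 20 kb from a start site. The 6 tables shared 4767 origins in all, and every test across origins was fitted on all of them.

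Nascent RNA was measured by BrU-seq, in which cells were given bromouridine (2 mM, 30 min) and the RNA made in that time was captured and sequenced as paired reads of 151 bases. The cells were RPE1, an hTERT-immortalised human line from retinal pigment epithelium, with the iCas9 transgene and a double knockout of p53 and puro. There were 3 CFAP20-KO libraries and 3 WT libraries with origin tables, and both kinds of cell share this background. A rescue library (CFAP20-KO cells with CFAP20-GFP) has a splice table only. Neither the number of CFAP20-KO clones nor the origin of the replicates (separate cultures or not) is stated in the labels. The p-values therefore cover only library-to-library spread, part of which may be technical.

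OK-seq sequences Okazaki fragments, the short pieces of the lagging strand, and finds origins as places where the strand of these fragments switches. A pair of forks leaves such a place in opposite directions. When the centre lies upstream of a start, the fork that enters the gene travels in the same direction as RNA polymerase II, whereas a centre inside a gene sends one fork with the polymerase and the other towards the polymerases that are still upstream. CFAP20 is known as a protein of the doublets of ciliary microtubules, and the series asks about its roles in transcription and replication in the nucleus.

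The 6 promoters shown next, from RefSeq (GRCh38.p14, 250 bases before to 50 after the start), belong to members on which the later results turn. PDE4B and SYTL3 are among the origins with more signal after the centre in CFAP20-KO libraries, ABCC2 and LOC107001062 among those with less, and HSP90AB1 and PLPP4 have the highest signal after the centre on either side of the start. Capitals mark GGGCGG (the GC box), TATAAA (the TATA box core) and CCAAT, each searched on both strands, with no letters shared between matches.
PDE4B promoter, chr1:65792260-65792559, plus strand: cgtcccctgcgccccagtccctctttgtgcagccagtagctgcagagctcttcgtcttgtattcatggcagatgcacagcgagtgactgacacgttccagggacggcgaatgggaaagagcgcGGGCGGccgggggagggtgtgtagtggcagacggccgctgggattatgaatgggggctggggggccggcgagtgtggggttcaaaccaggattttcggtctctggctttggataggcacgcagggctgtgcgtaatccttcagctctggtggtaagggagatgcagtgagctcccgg
SYTL3 promoter, chr6:158649804-158650103, plus strand: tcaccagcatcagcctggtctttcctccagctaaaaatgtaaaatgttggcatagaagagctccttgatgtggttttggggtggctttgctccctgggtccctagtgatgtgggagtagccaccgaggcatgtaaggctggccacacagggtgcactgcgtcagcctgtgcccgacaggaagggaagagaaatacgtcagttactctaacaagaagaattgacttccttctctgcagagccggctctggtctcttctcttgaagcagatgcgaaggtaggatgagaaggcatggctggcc
ABCC2 promoter, chr10:99782390-99782689, plus strand: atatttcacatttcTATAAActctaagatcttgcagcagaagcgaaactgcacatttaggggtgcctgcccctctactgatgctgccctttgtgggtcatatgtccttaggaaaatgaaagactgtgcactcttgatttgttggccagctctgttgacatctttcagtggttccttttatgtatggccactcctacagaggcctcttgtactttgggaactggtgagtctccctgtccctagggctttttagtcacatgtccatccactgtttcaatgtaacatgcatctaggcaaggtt
LOC107001062 promoter, chr10:47406915-47407214, plus strand: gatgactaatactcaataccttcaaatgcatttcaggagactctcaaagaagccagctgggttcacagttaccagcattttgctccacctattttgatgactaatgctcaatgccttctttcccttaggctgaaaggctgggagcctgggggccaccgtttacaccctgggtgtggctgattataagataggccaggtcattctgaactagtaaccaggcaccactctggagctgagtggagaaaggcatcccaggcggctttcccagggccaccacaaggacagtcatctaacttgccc
HSP90AB1 promoter, chr6:44245944-44246243, plus strand: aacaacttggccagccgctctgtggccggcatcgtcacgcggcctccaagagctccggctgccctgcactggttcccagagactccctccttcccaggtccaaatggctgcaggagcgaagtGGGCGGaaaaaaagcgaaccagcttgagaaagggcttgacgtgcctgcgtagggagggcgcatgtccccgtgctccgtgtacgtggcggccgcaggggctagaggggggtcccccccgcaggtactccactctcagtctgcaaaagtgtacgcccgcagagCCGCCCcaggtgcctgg
PLPP4 promoter, chr10:120456704-120457003, plus strand: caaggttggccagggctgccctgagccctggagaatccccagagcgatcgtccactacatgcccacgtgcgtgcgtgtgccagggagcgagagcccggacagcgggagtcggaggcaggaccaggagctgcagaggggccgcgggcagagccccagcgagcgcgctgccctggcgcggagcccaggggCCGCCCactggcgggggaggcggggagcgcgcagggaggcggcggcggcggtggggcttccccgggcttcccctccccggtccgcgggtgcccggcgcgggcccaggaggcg
HSP90AB1 holds 2 GC boxes, PDE4B 1 and PLPP4 1, ABCC2 holds 1 TATAAA, and SYTL3 and LOC107001062 hold none of the 3 motifs. The GC content was 77.3% at PLPP4 and 65.3% at HSP90AB1, against 45% at ABCC2. Their ratio of observed to expected CpG was 0.748 at PLPP4, 0.656 at HSP90AB1 and 0.0660 at ABCC2.

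Of the 391 members, 269 matched a promoter of this table, 216 with the centre upstream and 53 with it downstream. GGGCGG occurred in 57.6% of the members' promoters and in 45.0% of all 35116 promoters of the table. TATAAA occurred in 5.95% of the members' promoters and in 11.5% of all, and CCAAT in 35.3% and in 34.6%. A CpG ratio of at least 0.6 was found in 67.7% of the members' promoters and in 48.9% of all. Among members with an upstream centre, the 108 promoters with more signal after the centre than the median of their group had this CpG ratio in 84.3% of cases, and the 108 at or below it in 50%. A motif match is a description of letters and not a binding site.

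The one member called in the planned fit (CFAP20-KO against WT with no covariate) is the origin at ARHGAP35, which encodes the GTPase-activating protein p190A. Its centre has a listed distance of -2496 bases from the start, outside the annotated gene (chromosome 19, 46860997 to 47005077, hg38). Centres are listed on a grid of 500 bases, so the exact base is not a site.

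The members were spread over 23 chromosomes, with 205 on the plus strand and 186 on the minus strand, and no member had another listed centre within 20 kb. Of the 391, 359 had a gene name found in GENCODE 44 on the same strand, and for 333 the annotated start lay within 100 bases of the listed one. These were mostly protein-coding genes (308), with 24 lncRNA and 11 miRNA genes. Upstream centres lay outside any annotated protein-coding or lncRNA gene in 75.6% of cases (235 of 311), and downstream centres lay in a gene of the same strand in 72.5% (58 of 80). A gene on the opposite strand started within 10 kb behind the centre for 15.4% of upstream members, against 3.68% of the upstream origins at 5 to 20 kb. Listed distances are to the nearest start in the annotation behind the list, whereas the starts counted here are from GENCODE 44. Where both annotations hold a start, it cannot lie nearer behind a centre than the listed one. To that extent, less of the 10 kb is open to such a start at origins 5 to 20 kb away. The contrast may thus follow in part from the classes and is a description.

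GC content was highest on the side of the start. For upstream members the median GC content of 500-base windows was 44.6% at the centre, 47.4% at 3 kb after it and 43.6% at 3 kb before it. For downstream members it was 46% at the centre, 47.2% at 2 kb before it and 43% at 2 kb after it. At upstream origins 5 to 20 kb from a start it was 43.2% at the centre and 43% at 3 kb after it, and it was also higher on the side of the start, with 44.6% at 7 kb after the centre. At those over 20 kb upstream it was 40.8% at the centre.

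For upstream members the nascent signal was close to 0 up to the centre and high after it. Values are the authors' scaled coverage per 200-base bin on the transcribed strand, averaged over 10 to 1 kb before the centre, within 1 kb of it, or 1 to 10 kb after it. The median over the 311 origins before the centre was 0.0350, 0.0462 and 0.0400 in CFAP20-KO replicates 1 to 3, against 0.0400, 0.0391 and 0.0581 in WT replicates 1 to 3. At the centre it was 0, 0.0145 and 0.0164 in CFAP20-KO, against 0, 0.0133 and 0.0170 in WT. After the centre it was 3.08, 3.11 and 2.98 in CFAP20-KO, against 3.29, 2.07 and 2.91 in WT. The groups overlapped in every zone, and WT replicate 2 was the lowest after the centre.

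For downstream members the signal lay on both sides of the centre and at it. The median over the 80 origins before the centre was 0.398, 0.393 and 0.406 in CFAP20-KO, against 0.450, 0.298 and 0.313 in WT. At the centre it was 0.769, 0.705 and 0.769 in CFAP20-KO, against 0.927, 0.583 and 0.560 in WT. After the centre it was 0.804, 0.556 and 0.428 in CFAP20-KO, against 0.667, 0.395 and 0.535 in WT. The groups overlapped here too. A signal of at least 0.0170, the minimum for a test, was reached after the centre by 278 of the 311 upstream and by 68 of the 80 downstream members, and at the centre by 176 and by 66.

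**Figure D1:**
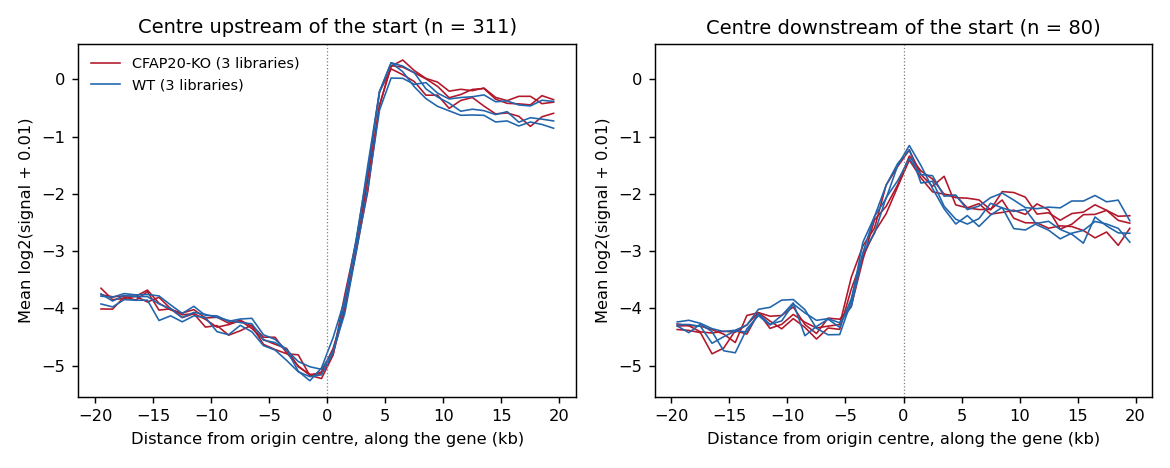
Mean of log2(signal + 0.01) per 1 kb from 20 kb before to 20 kb after the origin centre, along the gene, for 311 members with an upstream centre (left) and 80 with a downstream centre (right); each line is 1 library, CFAP20-KO in red and WT in blue. The signal climbs within 5 kb after an upstream centre and peaks at a downstream centre, and the lines of the 2 groups overlap.

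**Figure D2:**
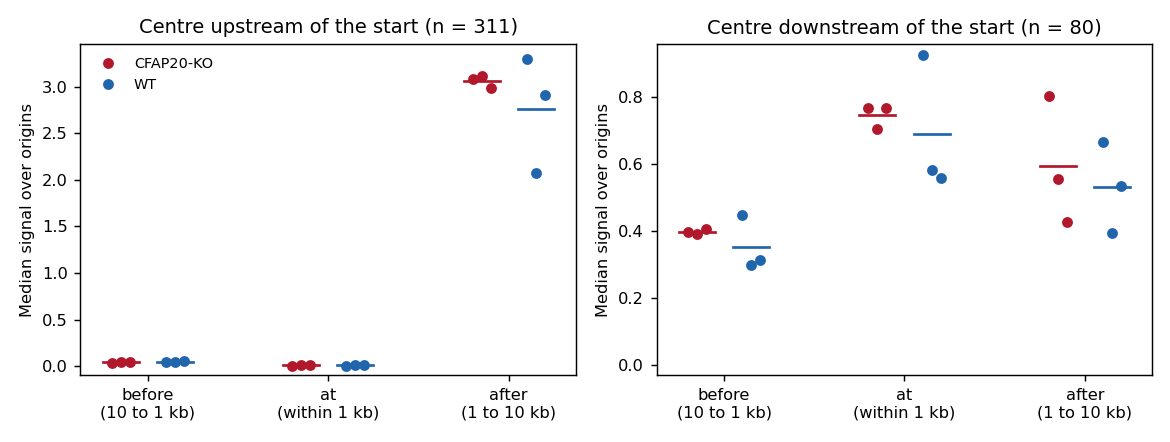
Median signal over members in each library, before, at and after the centre; points are libraries, CFAP20-KO left of WT, and bars are the means of 3 libraries. After an upstream centre the CFAP20-KO libraries lie at 2.98 to 3.11 and the WT libraries at 2.07 to 3.29.

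Aligned on the start instead of the centre, both sides showed a step at the start. The median signal of upstream members 1 to 2 kb past the start was 4.09, 4.54 and 4.54 in CFAP20-KO, against 5.04, 3.20 and 5.11 in WT, and that of downstream members 2.08, 1.54 and 1.98 in CFAP20-KO, against 2.67, 1.75 and 2.03 in WT. At 9 to 10 kb past the start it was 1.57, 2.05 and 1.94 in CFAP20-KO for upstream members, against 1.38, 1.69 and 1.34 in WT. In the 1 kb before the start it was 0 in all 6 libraries for upstream members.

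The level after the centre varied with the distance to the start. The zones are fixed to the centre, so for upstream members a larger distance leaves less of the gene in the zone after it. For downstream members a larger distance puts more of the gene in the zone before the centre. These levels are therefore a description. Among upstream members the median over origins of the 6-library mean was 3.91 for 47 centres within 1 kb of the start, 3.84 for 60 centres at 2 to 3 kb and 2.44 for 80 centres at 4 to 5 kb. Among downstream members it was 3.42 for 18 centres within 1 kb of the start and 0.212 for 17 centres at 4 to 5 kb. The course between was uneven in these small groups. It was 0.310 at 1 to 2 kb (15 centres), 1.21 at 2 to 3 kb (14) and 0.219 at 3 to 4 kb (16). The signal before the centre ran the other way in downstream members, with 0.0126 within 1 kb and 1.09 at 4 to 5 kb. Protein-coding members with an upstream centre had a median of 3.87 after it (255 origins), and lncRNA members 0.223 (16 origins).

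The orientation of the signal was summarised as the log2 ratio of the signal after to that before the centre, a difference of log2(signal + 0.0170) values. For 287 upstream members the median ratio was 4.78, 4.91 and 4.88 in CFAP20-KO, against 4.81, 4.69 and 4.78 in WT. The mean of the library medians was 4.85 ± 0.07 in CFAP20-KO and 4.76 ± 0.06 in WT (SD, n = 3 each), and the groups overlapped. For 73 downstream members it was 0.24, 0.78 and 0.59 in CFAP20-KO, against 0.25, 0.82 and 0.37 in WT, again overlapping. At origins 5 to 20 kb upstream of a start the mean of library medians was 2.20 in CFAP20-KO and 2.51 in WT, and at those over 20 kb upstream it was -0.49 in CFAP20-KO and -0.54 in WT. Members and the other distance classes differ by how they were chosen, so this contrast is a description.

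**Figure D3:**
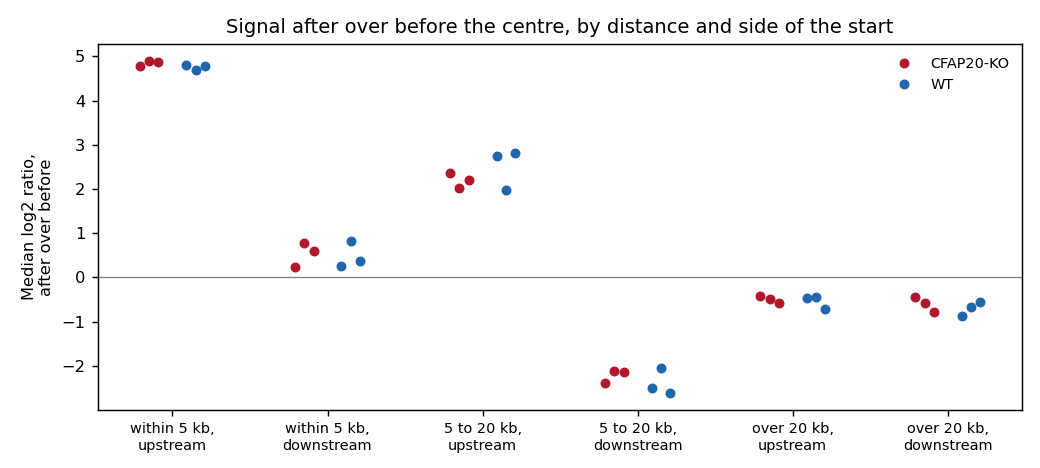
Median log2 ratio of signal after to before the centre for listed origins, by distance to the start and by the side of it on which the centre lies; each point is 1 library, CFAP20-KO left of WT. Members with an upstream centre lie at 4.69 to 4.91 in all 6 libraries, above each of the other classes.

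Tests compared CFAP20-KO with WT across all origins, for the signal before, at and after the centre and for the ratio, with limma and Benjamini-Hochberg adjustment. Before the centre, 0 of 250 members tested were called in either direction (0% of the 3107 origins tested), with 8 higher and 12 lower at an unadjusted p under 0.05, against 3.09% and 7.63% of all origins. At the centre, 1 of 242 members was called higher (0.0379% of the 2639 origins tested) and 0 lower (0.265%), with 10 higher and 17 lower at an unadjusted p under 0.05, against 3.03% and 5.68%. After the centre, 0 of 346 members were called (0% of 3286 origins tested), with 13 higher and 11 lower at an unadjusted p under 0.05, against 3.04% and 7%. For the ratio 0 of 360 members were called (0% of 3728 origins tested), with 15 higher and 10 lower at an unadjusted p under 0.05, against 4.45% and 4.05%.

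The one call was ARHGAP35 at the centre. The signal within 1 kb of its centre was 3.58, 1.56 and 1.39 in CFAP20-KO replicates 1 to 3, whereas all 3 WT libraries are listed at 0 there. No fold is given against 0. It passed the filter on low values through the CFAP20-KO libraries alone, and with no spread among WT libraries the adjusted p of limma (2.7e-07) depends on the pseudocount and the setting, from 6.7e-11 to 0.0395 over 18 alternatives. The values of the libraries are therefore the description to go by. The 3 CFAP20-KO libraries thus all had signal at this centre.

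The signal at ARHGAP35 was part of a longer stretch. From 6 kb before the centre to 1 kb after it the mean was 2.56, 0.933 and 0.936 in CFAP20-KO, against 0.0171, 0.0105 and 0.0427 in WT. The stretch began next to the start of AP2S1, which encodes a subunit of the clathrin adaptor AP-2, lies on the opposite strand and starts 7.66 kb before the centre. From 10 to 7 kb before the centre, around this start, the signal on the strand of ARHGAP35 was 1.15, 1.12 and 1.04 in CFAP20-KO, against 1.48, 0.386 and 1.69 in WT, so both groups had signal here and overlapped. From 12 to 10 kb before the centre all 6 libraries are listed at 0. In the WT libraries it was at most 0.149 in each 1 kb from 6 kb before to 1 kb after the centre, and in the CFAP20-KO libraries it went on at 0.45 to 4.56 in each 1 kb up to 1 kb after the centre.

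Inside ARHGAP35 the signal from 3 to 10 kb after the centre was 10.1, 10.95 and 9.48 in CFAP20-KO, against 7.86, 10.1 and 7.08 in WT, and the groups overlapped. From 10 to 50 kb after the centre it was 7.52, 5.90 and 5.89 in CFAP20-KO, against 3.11, 4.28 and 2.34 in WT. All 3 CFAP20-KO libraries lay above all 3 WT libraries there. This last stretch was chosen after its values were seen and was not tested.

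**Figure D4:**
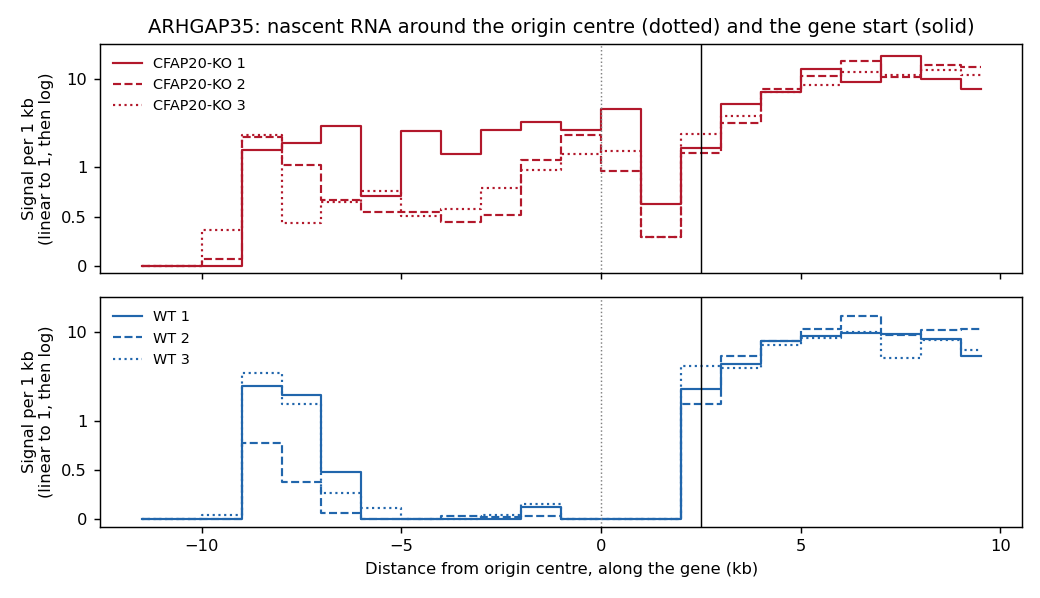
Signal per 1 kb around the ARHGAP35 origin centre (dotted line at 0) and the start of the gene (solid line) in 3 CFAP20-KO libraries (top) and 3 WT libraries (bottom); the axis is linear to 1 and logarithmic above. CFAP20-KO libraries have signal in each 1 kb from 9 kb before the centre into the gene, whereas WT libraries have it from 9 to 6 kb before the centre, at most 0.149 from there on, and again from 2 kb after the centre.

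A few other members at or before the centre are described by their values, and were picked after these were seen. RUNX1, a haematopoietic transcription factor gene with a listed distance of -2703 bases, had 0.107, 0.291 and 0.180 at the centre in CFAP20-KO, against 1.42, 0.767 and 0.950 in WT (adjusted p = 0.122, limma). AIG1 had 0.107, 0.0291 and 0.213 there in CFAP20-KO, against 1.06, 0.6 and 0.509 in WT (adjusted p = 0.132, limma). Both had all CFAP20-KO libraries below all WT libraries and missed the threshold. DDX60L, a relative of the RNA helicase DDX60, had 0.322, 0.480 and 0.655 in CFAP20-KO, against 1.45, 1.63 and 3.17 in WT, with an adjusted p of 0.172 (limma).

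DMRT3, a gene of the DM-domain transcription factors, had the lowest adjusted p before the centre (0.0956, limma). Its centre lies 2346 bases inside the gene, and the signal before it was 0.822, 1.15 and 1.03 in CFAP20-KO, against 0.140, 0.0831 and 0.120 in WT. From 3 kb before to 2 kb after the centre, where DMRT3 starts, the signal was at most 0.3 per 1 kb in each library. It was higher farther back, towards the end of DMRT1, the neighbour on the same strand, and at 12 to 11 kb before the centre it was 1.89, 14.5 and 12.5 in CFAP20-KO, against 0.360, 0.616 and 1.12 in WT. Between 5 and 6 kb before the centre it was 1.18, 0.608 and 0.396 in CFAP20-KO, and all 3 WT libraries are listed at 0.

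The highest values before the centre, at SNORD141B and LRR1, lay beside neighbours on the same strand. The next highest was at HPS6, where HPS6 itself starts 4.15 kb before the centre and no neighbour is annotated in that zone. SNORD141B, a small nucleolar RNA gene with its centre downstream, had 397, 462 and 436 before the centre in CFAP20-KO, against 431, 345 and 467 in WT, where EEF1A1, the gene of a translation elongation factor, lies on the same strand. LRR1 had 104, 71.2 and 76.3 in CFAP20-KO, against 91.7, 393 and 94.7 in WT, in a zone that holds RN7SL1, the RNA of the signal recognition particle. WT replicate 2 stood apart from the other 5 libraries at LRR1.

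More members had libraries that did not overlap between the groups than passed a test. After the centre, 32 of 346 members (9.25%) had all CFAP20-KO libraries above all WT libraries, and 23 (6.65%) had all below, against 6.7% and 9.95% of all origins tested. Before the centre the counts were 21 and 19 of 250, against 6.73% and 10.9% of all origins. At the centre they were 17 and 17 of 242, against 5.23% and 8.3%. For the ratio they were 30 and 23 of 360, against 7.43% and 6.76%.

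The median change (CFAP20-KO minus WT) of the members tested was small in each zone, on the log2(signal + 0.0170) scale. After the centre it was 0.07 for upstream and 0.13 for downstream members, with -0.04 over all origins tested. Before the centre it was -0.05 and 0.03, with -0.10 over all. At the centre it was -0.18 and 0.08, with -0.04 over all. The column names of the splice table hold 3 different numbers, which are taken here to mark runs. No label says what these numbers are. On this reading WT 1 and CFAP20-KO 1 are in run 1, and WT 2 and the rescue in run 2. WT 3, CFAP20-KO 2 and CFAP20-KO 3 are in run 3. Within run 1 and within run 3 the median change after the centre was -0.06 and -0.06 for upstream members, and 0.05 and 0.18 for downstream members. Centring each library on its median moved the median change over all origins after the centre to 0.15, and that of upstream members to 0.27.

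Farther into the genes, 10 to 50 kb after the centre, the median signal of upstream members was 1.44, 1.86 and 1.79 in CFAP20-KO, against 1.40, 1.53 and 1.47 in WT, with overlap only between CFAP20-KO replicate 1 and the WT libraries. The median change was 0.22 for upstream members (0.14 within run 1 and 0.38 within run 3), 0.17 for downstream members and 0.12 over all origins, and 198 of 282 upstream members (70.2%) had a positive change, against 61.0% of all origins. Upstream origins at 5 to 20 kb had nearly the same median change (0.21) and share of positive changes (68.5%). The log2 ratio of this far signal to the signal 1 to 10 kb after the centre had a median of -1.13, -0.79 and -0.75 in CFAP20-KO, against -1.30, -0.66 and -1.26 in WT (265 upstream members), and the groups overlapped through WT replicate 2. In protein-coding members longer than 100 kb with an upstream centre (91 tested) the same ratio averaged -0.92 ± 0.19 in CFAP20-KO and -1.13 ± 0.44 in WT (SD over libraries, n = 3 each).

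With the run as a covariate, limma called 28 members higher and 39 lower after the centre, which is 8.09% and 11.3% of the 346 tested, against 4.72% and 16.3% of all origins. Before the centre it called 10 higher and 28 lower, against 3.06% and 14.9% of all origins, at the centre 2 and 16, against 1.36% and 6.67%, and for the ratio 0. WT replicate 2 carries no weight in this fit, since no CFAP20-KO library shares its run. CFAP20-KO replicates 2 and 3 share a run, and their log2 signal after the centre correlated at 0.984 over the origins tested. The correlation was at most 0.957 for any other pair of libraries. Part of the spread that this fit uses may thus be technical, and its adjusted p-values may be too low. When the libraries were also centred, 88 were higher and 17 lower (25.4% and 4.91%), against 15.2% and 7.64% of all origins, so the split between the directions depends on the scaling. Before the centre these counts were 19 and 19, against 9.43% and 10.3%, and at the centre 7 and 18, against 2.24% and 7.2%. Of the 67 members called, 45 were called in both fits (28 higher and 17 lower). In fits without the run, 2 of them passed with replicate number as a block. With CFAP20-KO replicates 2 and 3 averaged into 1 library, also without the run, 0 passed. The planned fit without the run had called 0 after the centre too, so the averaged fit does not test the calls made with the run. Of these 67, 30 had libraries that did not overlap. No such shares are given here over all origins called in this fit, so these counts among the 67 only describe the members.

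SPOCK1, which encodes the proteoglycan testican-1, had the largest increase named from the fit with this covariate. Its signal after the centre was 13.1, 15.8 and 15.02 in CFAP20-KO, against 5.17, 5.68 and 6.90 in WT. The groups were well apart, but members named from this fit were chosen for libraries that do not overlap and for passing its threshold. The change was 1.31 ± 0.32 (log2, SE) with an adjusted p of 0.195 in the planned fit, and 1.24 ± 0.16 with an adjusted p of 6.7e-04 with the run as a covariate (limma). Within run 1 it was 1.34 and within run 3 1.16. All 18 alternative settings kept its direction and 4 put it past the threshold. Where libraries do not overlap, leaving out a library cannot change the direction, and the replicate block left the change at 1.31. The kept direction thus follows in part from the choice of members.

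HMCN1 (hemicentin-1 of the extracellular matrix) had 1.33, 1.22 and 1.32 after the centre in CFAP20-KO, against 0.413, 0.588 and 0.730 in WT. PDE4B (a cAMP phosphodiesterase, promoter shown above) had 0.682, 0.846 and 0.680 in CFAP20-KO, against 0.213, 0.186 and 0.427 in WT. CPOX (coproporphyrinogen oxidase of haem synthesis) had 6.37, 8.28 and 7.80 in CFAP20-KO, against 3.72, 3.46 and 4.24 in WT. These 3 had adjusted p of 0.016, 0.032 and 0.0052 with the run as a covariate and of 0.338, 0.301 and 0.302 in the planned fit (limma).

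LRIG1, a feedback inhibitor of receptor tyrosine kinases, had 7.18, 7.11 and 7.02 in CFAP20-KO, against 4.91, 5.98 and 3.34 in WT. UBR2, a ubiquitin ligase of the N-degron pathway and the only one of these 10 with its centre inside the gene (472 bases), had 6.12, 5.63 and 5.38 in CFAP20-KO, against 3.15, 3.97 and 3.28 in WT. MTPAP, the mitochondrial poly(A) polymerase, had 4.44, 5.01 and 5.59 in CFAP20-KO, against 2.01, 2.39 and 3.99 in WT. Their adjusted p with the run as a covariate was 0.0082, 0.0066 and 0.029 (limma), and the groups did not overlap, both as the choice of members requires.

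ACTN4, an actin crosslinker, and SYTL3, a Rab27 effector in vesicle traffic, had their highest value in CFAP20-KO replicate 1. ACTN4 had 60.7, 26.1 and 23.5 in CFAP20-KO, against 19.7, 15.3 and 20.6 in WT, with a change of 1.62 within run 1 and 0.26 within run 3. SYTL3 had 3.68, 1.70 and 1.42 in CFAP20-KO, against 1.28, 1.23 and 1.15 in WT, with 1.51 within run 1 and 0.43 within run 3. ITSN2, an endocytic scaffold, had 2.13, 1.87 and 2.17 in CFAP20-KO, against 1.2, 1.43 and 1.10 in WT, and its change was -0.25 with zones of 1 to 5 kb.

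Only 8 members met the same rule in the other direction. ABCC2, an exporter of organic anions, had 2.81, 3.65 and 3.71 after the centre in CFAP20-KO, against 7.11, 3.93 and 10.5 in WT, with a change of -1.43 ± 0.16 (adjusted p = 4.3e-04, limma with the run as a covariate; -0.98 and 0.454 in the planned fit). WT replicate 2, which that fit does not weigh, was close to the CFAP20-KO libraries. LOC100133091 had 5.26, 6.90 and 6.64 in CFAP20-KO, against 14.4, 12.02 and 12.2 in WT, with a change of -1.10 ± 0.18 (adjusted p = 0.0024, limma with the run as a covariate). All its WT libraries lay well above the CFAP20-KO libraries, though the choice of members already requires that they do not overlap.

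CCAT1, a long noncoding RNA gene, had 0.149, 0.462 and 0.492 in CFAP20-KO, against 0.900, 0.904 and 1.23 in WT. LOC107001062 (promoter shown above) had 0.271, 0.235 and 0.188 in CFAP20-KO, against 0.627, 0.342 and 1.02 in WT. Both passed with the run as a covariate and with the libraries centred as well (adjusted p of 0.023 and 0.017, limma). KIAA1549 had 0.760, 0.665 and 0.668 in CFAP20-KO, against 1.57, 1.37 and 1.41 in WT.

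BFSP1, the lens filament protein filensin, had 0.734, 0.636 and 0.868 in CFAP20-KO, against 1.53, 2.78 and 1.25 in WT. DDX60L had 3.51, 3.78 and 4.26 in CFAP20-KO, against 5.88, 4.89 and 6.94 in WT. PKP2, the desmosomal plakophilin-2, had 2.00, 1.82 and 1.69 in CFAP20-KO, against 3.63, 5.47 and 2.85 in WT. With KIAA1549 these 3 passed with the run as a covariate, but with the libraries centred as well their adjusted p was 0.067 for KIAA1549, 0.214 for BFSP1, 0.129 for DDX60L and 0.186 for PKP2 (limma).

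**Figure D5:**
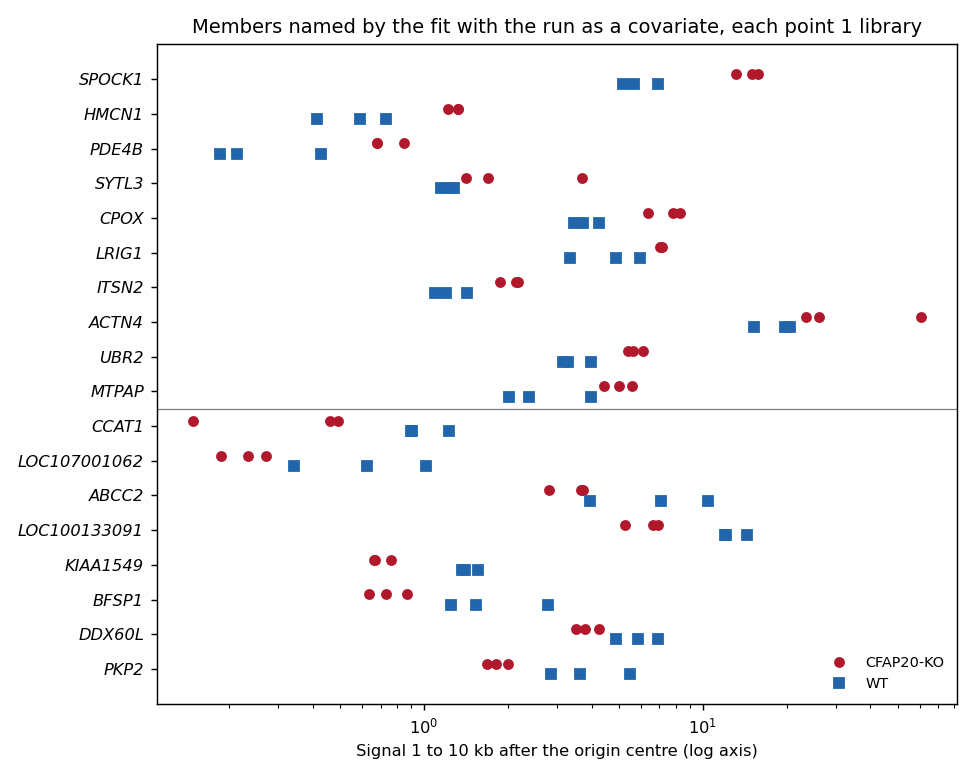
Signal 1 to 10 kb after the origin centre (log axis) in each library for the 10 members with the largest increase (above the line) and the 8 with a decrease (below the line), from limma with a run covariate; red circles are CFAP20-KO and blue squares WT, 3 libraries each. The 2 groups do not overlap in any of the 18, as the choice of members requires, and at ABCC2 the lowest WT library (3.93) is close to the highest CFAP20-KO library (3.71).

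Some members with large changes in the planned fit did not pass there and had a mean signal below the median of 0.404. LOC400622, whose centre lies exactly 5000 bases upstream, had 0.367, 0.331 and 0.288 after the centre in CFAP20-KO, against 0.0400, 0.0375 and 0.0664 in WT (adjusted p = 0.141, limma). It also had 0.516, 0.644 and 0.744 before the centre in CFAP20-KO, against 0.1, 0.305 and 0.141 in WT, so both sides of this centre were higher. A lncRNA gene on the same strand, ENSG00000267665, starts 5.11 kb before this centre and spans it. At 1 to 2 kb after the centre, before the listed start, the signal was 0.865, 0.736 and 0.720 in CFAP20-KO, against 0, 0.103 and 0.336 in WT. At 5 to 6 kb, past the listed start, it was 0, 0.192 and 0.144 in CFAP20-KO, against 0, 0.0587 and 0 in WT. MEIG1, a gene of meiosis and sperm formation, had 0.463, 0.423 and 0.204 in CFAP20-KO, against 0.0400, 0.0978 and 0.0788 in WT (adjusted p = 0.195, limma).

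TCF20, a transcriptional regulator, had 0.367, 0.0996 and 0.0920 in CFAP20-KO, against 0.0333, 0.0505 and 0.0373 in WT (adjusted p = 0.39, limma). The pseudogene GOLGA6L17P had 0.0262, 0.0107 and 0.0160 in CFAP20-KO, against 0.140, 0.0277 and 0.124 in WT (adjusted p = 0.417, limma). Its family has near-identical copies, so its reads may be split between them.

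The highest signal after an upstream centre was at HSP90AB1, the constitutive cytosolic HSP90 chaperone, with 132, 278 and 214 in CFAP20-KO, against 172, 97.3 and 199 in WT. SFPQ, a nuclear splicing factor, had 50.7, 77.9 and 61.5 in CFAP20-KO, against 74.8, 50.01 and 64.1 in WT. In both genes the groups overlapped. RND3, a small GTPase, had 67.9, 60.8 and 62.9 in CFAP20-KO, against 50.03, 53.2 and 48.5 in WT, without overlap, with a change of 0.34 and an adjusted p of 0.802 (limma).

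The highest signal after a downstream centre was at PLPP4, a phospholipid phosphatase, with 51.0, 30.0 and 29.0 in CFAP20-KO, against 26.5, 16.9 and 21.5 in WT (adjusted p = 0.558, or 0.016 with the run as a covariate, limma). CDC25B, the phosphatase that activates CDK1, had 7.02, 8.36 and 7.80 in CFAP20-KO, against 20.4, 6.51 and 23.0 in WT. WT replicate 2 lay below all CFAP20-KO libraries here, and the change was -0.91 (adjusted p = 0.565) in the planned fit and -1.52 ± 0.15 (adjusted p = 2.9e-04) with the run as a covariate (limma). CLIP4 had 5.81, 11.7 and 12.5 in CFAP20-KO, against 10.8, 8.84 and 16.9 in WT. The groups overlapped, and the change was -0.31 (adjusted p = 0.883) in the planned fit and -0.66 (adjusted p = 0.017) with the run as a covariate (limma).

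Few genes of the 14 pathway lists had an origin this close to their start. Of the list for replication licensing and forks (45 genes) 2 were members, GINS1 of the replicative helicase and RFC1 of the clamp loader. GINS1 had 8.42, 5.57 and 5.15 after the centre in CFAP20-KO, against 11.5, 6.88 and 11.4 in WT, and passed with the run as a covariate (adjusted p = 0.011, limma; 0.616 in the planned fit). RFC1 had 2.5, 4.11 and 4.72 in CFAP20-KO, against 2.69, 4.56 and 4.64 in WT, which overlap. Of the cell cycle list (33 genes) 2 were members, CDC25B, given above, and CDK1, with 11.5, 30.6 and 29.1 in CFAP20-KO, against 17.9, 19.0 and 31.3 in WT.

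CDK12, a kinase of the RNA polymerase II tail and the 1 member among 44 genes of polymerase II initiation, elongation and termination, had 10.2, 6.74 and 4.71 in CFAP20-KO, against 4.71, 5.55 and 3.63 in WT (adjusted p = 0.663, or 0.015 with the run as a covariate, limma). Of 35 cilium assembly genes 2 were members. TTBK2, a kinase that starts cilium formation, had 1.03, 1.28 and 1.43 in CFAP20-KO, against 1.05, 1.40 and 1.112 in WT. TMEM67, of the ciliary transition zone, had 1.42, 1.78 and 1.62 in CFAP20-KO, against 1.03, 1.27 and 1.44 in WT. The groups overlapped in both.

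Of 30 immediate early genes 2 were members. NR4A1 had 0.411, 0.107 and 0.0880 in CFAP20-KO, against 0.240, 0.0424 and 0.137 in WT, and ATF3 is listed at 0 after the centre in all 6 libraries. HSP90AB1 was the 1 member among 18 stress response genes. The lists of DNA repair and checkpoint, Mediator, R-loops and RNA export, Hedgehog, YAP and TEAD, matrix, ribosomal proteins and chromatin regulators had 0 members. In the planned fit, limma called 0 of the listed members after the centre, higher or lower.

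At the edges of the distance rule, NUP35, a nucleoporin with its centre 11 bases inside the start, had 2.20, 5.39 and 4.62 after the centre in CFAP20-KO, against 2.49, 3.91 and 4.67 in WT. ZNF121, at a listed distance of -4997 bases, had 24.3, 17.5 and 14.996 in CFAP20-KO, against 22.8, 13.8 and 21.5 in WT. Just outside, at 5020 bases, KLRF1 is listed at 0 after the centre in all 6 libraries, and GPR25 had 0.0175, 0 and 0 in CFAP20-KO, against 0.00667, 0.00326 and 0 in WT.

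The splice table, which gives a splice index per intron as a fraction, held 118 introns of 38 member genes with values in the 6 libraries. The median index of these introns was 0.592, 0.852 and 0.804 in CFAP20-KO, 0.811 in the rescue library, and 0.701, 0.755 and 0.769 in WT. Over all 6537 introns it was 0.519, 0.706 and 0.686 in CFAP20-KO, 0.729 in the rescue library, and 0.543, 0.693 and 0.650 in WT. CFAP20-KO and WT overlapped in both sets, and the libraries of run 1 were the lowest of their group.

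The scaled signal came in whole steps, of 0.393, 0.160 and 0.180 in CFAP20-KO replicates 1 to 3, against 0.300, 0.0733 and 0.187 in WT replicates 1 to 3. A larger step means fewer sequenced fragments behind a value, so low or zero values are less precise in CFAP20-KO 1 and WT 1. Of 28 markers of cell types, 5 lay in an origin window. The labelled cell type could hardly be checked, since RLBP1, the 1 measured of 8 markers of retinal pigment epithelium, was low, with 0.126, 0.0192 and 0.0504 in CFAP20-KO, against 0.390, 0.139 and 0.183 in WT. The neuronal marker MAP2 had 1.18, 2.20 and 2.09 in CFAP20-KO, against 3.56, 5.89 and 4.34 in WT, with all CFAP20-KO libraries below all WT libraries. SYT1, also neuronal, had 3.23, 7.01 and 8.15 in CFAP20-KO, against 4.85, 7.99 and 5.79 in WT, which overlap. ELF3, of other epithelia, had 0.419, 0.219 and 0.231 in CFAP20-KO, against 0.633, 0.126 and 0.365 in WT, which overlap, and RUNX3, of blood cells, was at most 0.0064. The part of these markers in the results was not tested. CFAP20 itself lay in no origin window and was not analysed here. Fewer cells with a transcript and less RNA per cell cannot be told apart in such bulk libraries.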

How the data were processed

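Nascent RNA libraries of 3 CFAP20-KO and 3 WT samples were compared. The submitters' processing notes name hg38 as the genome and, with no role or order, STAR 2.7.7a, SAMtools 1.11, HOMER 4.8.2, Trim Galore 0.6.5, R 4.0.5 and FastQC 0.11.9. The deposited tables hold signal (coverage) per 200-base bin within 100 kb of each origin centre, scaled by the authors in a way that no source used here gives. Every value was a whole multiple of 1 step per library, and since 1 fragment covers several bins these are not read counts, so no counting interval is given. The deposited splice index is a fraction from 0 to 1 per intron, per the file headers, with unknown depth. The list of centres with distance and strand (other) is the authors' own. Beyond its name, no source used here says how it was selected.

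Members and gene lists were chosen with earlier results of these data known. Windows are read along the strand of the nearest gene, which was checked by the step of the signal at the listed start. Residues below 1e-09 were set to 0. Zone means were compared as log2(signal + 0.0170), the 10th percentile of non-zero zone values, which understates changes of low origins. Origins with a mean below it were left out. limma 3.58.1 (trend and robust, statmod 1.5.0, R 4.3.3) was fitted over all origins, with Benjamini-Hochberg adjustment at 0.05, and tested on simulated data. Named members were the 10 largest rises and falls after the centre with non-overlapping libraries, signal above the median (0.404) and an adjusted p under 0.05. Since 0 passed in the planned fit, the same ranking was applied with the run as a covariate, beside the 5 largest in each direction of the planned fit. The 3 highest on each side, up to 3 per gene list and the edges of the distance rule were also named. Promoters were shown for the first of these with a RefSeq start within 100 bases of the listed one.

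Same-numbered libraries deviated together before the centre (correlations of 0.45, 0.21 and 0.12), which met the limit of 0.1, but not after the centre (0.48, 0.21 and 0.074), at the centre (0.24, 0.12 and 0.046) or for the ratio (0.26, 0.066 and 0.14). Pairs 1 and 3 also share a run. After the centre, CFAP20-KO 2 and 3 deviated with WT 2, of another run, at 0.21 and 0.27. With WT 3, of their own run, the correlations were 0.086 and 0.074. WT 2 was also the closer one before and at the centre, but not for the ratio. The run is a number in the column names of the splice table that no label explains, and is assumed to hold for the signal tables. Alternatives covered the replicate block, the run, centring, pseudocount, filter, zones, limma without trend, the distance limit and leaving out each library. Start-site tables were not used, and 1 member that the naming rule selects and 1 sequence are not reported here. Other tables were made with Python 3.11.15.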

Additional observations from a re-analysis of the deposited data

How the results depend on the processing

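Calls before the centre were 0 higher and 0 lower, and with the replicate block 0 and 0. They became 4 and 1 with the replicate block and centred libraries, 10 and 28 with the run as a covariate, 19 and 19 with the run and centring, 1 higher with centring alone and 1 higher with zones of 1 to 5 kb. Calls at the centre (1 higher, 0 lower) became 2 and 16 with the run and 7 and 18 with the run and centring. Calls after the centre (0 and 0) became 2 higher with the replicate block, 17 and 1 with the block and centring, 28 and 39 with the run, 88 and 17 with the run and centring, and 1 higher with centring alone. For the ratio 0 were called in all 18 alternatives. The cause of these differences between settings was not tested. Over all origins before the centre, the block with centring called 0.740% higher and 1.45% lower. Centring alone called 0.0322% higher there, and zones of 1 to 5 kb 0.0352%. After the centre the block called 0.396% higher and 1.03% lower of all origins, and the block with centring 3.44% and 2.28%. Centring alone called 0.213% and 0.243% there. Shares for fits with the run are given above. Leaving out each library gave 0 calls before and after the centre and for the ratio. At the centre it gave 1 higher and 0 to 1 lower. The 1 lower came without WT replicate 2, where 0.758% of all origins were called lower.

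The median change of upstream members at the centre (-0.18) was -0.019 with a pseudocount of 1 and ranged from -0.33 (without CFAP20-KO replicate 1) to -0.0099 (without WT replicate 3). After the centre (0.07) it was 0.27 with centring and -0.06 to 0.12 with a library left out. Before the centre it ranged from -0.15 to 0.06 upstream and from -0.26 (without WT replicate 2) to 0.16 downstream. Downstream it ranged from -0.13 to 0.22 at the centre and from 0.04 to 0.20 after it.

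The upstream median ratio (4.85 in CFAP20-KO and 4.76 in WT) was 1.76 and 1.72 with a pseudocount of 1, 5.51 and 5.43 with a pseudocount of 0.00170, 4.35 and 4.19 with no filter, 3.69 and 3.48 with zones of 1 to 25 kb, and 4.31 and 4.31 with a distance limit of 2500 bases. With zones of 1 to 5 kb it was 4.55 in CFAP20-KO. The downstream ratio (0.54 and 0.48) was 0.094 and 0.063 with a pseudocount of 1, -0.34 and -0.60 with zones of 1 to 5 kb, and 3.17 and 3.02 with a limit of 2500 bases, so its sign depends on the zone. Leaving out a library gave 4.83 to 4.89 in CFAP20-KO and 4.73 to 4.79 in WT upstream, and 0.42 to 0.69 and 0.31 to 0.60 downstream. All members lie over 20 kb from every other centre, so that limit changed no value. Depth limits zones near 0, most in CFAP20-KO 1 and WT 1. Among the named members, those that changed sign passed the threshold in no such setting. ITSN2 was -0.25 with zones of 1 to 5 kb. SFPQ (0.0062) was -0.18 with the run, -0.069 with CFAP20-KO replicates 2 and 3 averaged, -0.34 with zones of 1 to 5 kb, -0.064 with zones of 1 to 25 kb, and -0.15 to 0.16 with a library left out. NUP35 (0.09) was -0.021 with the run, -0.11 with the replicates averaged and -0.17 to 0.48 with a library left out. ZNF121 (-0.03) was 0.17 with centring, with or without the replicate block, 0.20 with the run and centring, 0.070 with the replicates averaged, 0.087 with zones of 1 to 25 kb and -0.26 to 0.12 with a library left out. CLIP4 (-0.31) was -0.52 to 0.040 with a library left out.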
